A study of Mus musculus with 4 samples.

Results

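5S ribosomal RNA gene windows were the rows of the promoter table whose symbol starts with n-R5s, the name given to annotated mouse 5S ribosomal RNA genes, and they numbered 126 of 26354 rows. The table came from H3K9me2 ChIP-seq of aortic vascular smooth muscle cells (VSMCs), taken straight from the medial layer of C57Bl/6J male mice after the adventitia and endothelium had been stripped by hand. The 4 libraries came from 2 experiments, named v102 and v134, in each of which a ChIP for H3K9me2 was sequenced beside its input, and nothing was treated or mutated. Ages and the number of animals behind each library are not given in the sources used here, so the p-values below measure only the spread between these libraries. Each row held the reads within 1 kb on either side of a transcription start site, so a value covers a short 5S copy together with its flanks, and the H3K9me2/input ratio was the deposited one, summed ChIP reads over summed input reads, with no scaling for library size.

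5S ribosomal RNA is the smallest RNA of the large ribosomal subunit, and RNA polymerase III makes it from genes that carry their promoter inside the transcribed sequence. The factor TFIIIA binds that internal control region, TFIIIC and TFIIIB then assemble on it, and the polymerase stops at a run of T on the coding strand. In mammals the genes that make most 5S RNA lie in tandem arrays, and many further copies, diverged to different degrees and mostly regarded as pseudogenes, are scattered through the genome. H3K9me2 is a histone mark laid down mainly by the EHMT methyltransferases and associated with silent chromatin.

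The 126 windows were scattered copies and held no gene of the array. The mouse annotation (GENCODE, GRCm38) names 180 n-R5s genes, of which 41 lie together on chromosome 8 between 123538786 and 123622046, a stretch of 83.3 kb with a median spacing of 1703 bp. Of these 41 array genes, 25 shared a sequence of 119 bases, the most frequent among the 180. All 41 had a TTTT in their last 4 annotated bases or the 15 bases after them. None of the 41 was among the rows, and together with 13 other annotated copies they were not analysed here. The 126 copies in the table lay on 21 chromosomes, and the closest pair on the same chromosome was 106780 bp apart. Each had a sequence of its own, with a median identity of 75.6% to the array sequence and a range from 51.3% to 96.6%. Only 10 copies reached 90% identity, and 93 were under 80%. The label of ribosomal RNA genes was thus taken from the annotation, at copies most of which had diverged from the array. Whether any of them is transcribed was not analysed, and the rows are called n-R5s copies here.

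The sequences below, read from the RefSeq GRCm38 genome on the strand of each gene from 5′ to 3′, show how far the copies had moved from the array. The capitals mark bases that do not match the array sequence in the alignment, and bases lost from a copy are not shown. Shown are n-R5s37 and n-R5s95, which were among the copies with the highest H3K9me2/input ratios, and the 2 copies with the lowest, n-R5s97 and n-R5s40.
n-R5s37: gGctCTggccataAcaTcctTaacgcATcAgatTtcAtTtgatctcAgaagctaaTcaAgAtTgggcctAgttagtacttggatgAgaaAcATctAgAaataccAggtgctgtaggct
n-R5s95: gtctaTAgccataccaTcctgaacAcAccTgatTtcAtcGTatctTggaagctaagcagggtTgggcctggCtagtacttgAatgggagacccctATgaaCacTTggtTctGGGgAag
n-R5s97: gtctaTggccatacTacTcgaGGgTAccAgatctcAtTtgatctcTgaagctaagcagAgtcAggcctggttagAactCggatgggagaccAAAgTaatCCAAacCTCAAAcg
n-R5s40: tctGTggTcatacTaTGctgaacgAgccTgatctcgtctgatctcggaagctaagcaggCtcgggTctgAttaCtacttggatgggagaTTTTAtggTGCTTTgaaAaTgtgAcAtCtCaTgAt

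The internal promoter differed from that of the most frequent array sequence in all copies but n-R5s185. The internal control region was taken as the 48 bases from 50 to 97 of the array sequence. Differences there, counted as bases changed, lost or inserted, had a median of 9 and a range from 0 to 30, and n-R5s185 had 0 differences. Genes of the array itself could differ from this sequence there, for example n-R5s101 and n-R5s102 with 3 differences each. Because inserted bases count, the number can exceed that of array positions not matched. At n-R5s175, for example, 29 differences went with 58.3% of the 48 positions matched. A TTTT in the last 4 annotated bases or the 15 bases after them, searched on the gene's strand, was found in 14 of the 126 copies. The same stretch of 19 bases held TTTT at 5.31% of all rows with a matched gene. Gene lengths ran from 79 to 132 bases, and among the 62 copies of 117 bases or more, 8 had the TTTT. RefSeq listed 7 of the copies as ribosomal RNA genes and 11 as pseudogenes, and did not list the other 108. The plot of identity by gene shows most measured copies under the array genes, with an overlap between 93.3% and 96.6%.

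**Figure D1:**
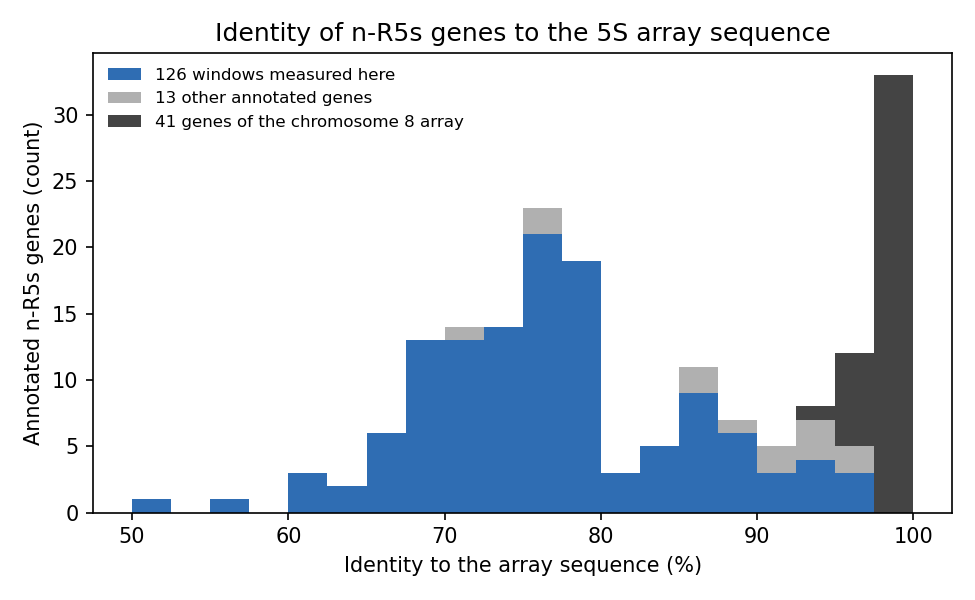
Number of annotated n-R5s genes (y axis) by identity to the array sequence in percent (x axis), stacked for the 126 windows measured here (blue), 13 other annotated genes (light grey) and the 41 genes of the chromosome 8 array (dark grey). The measured windows peak under 80% identity and reach 96.6%, whereas the array genes begin at 93.3% and have a median of 100%.

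No n-R5s window had an input far above the table median, as a window that collects the reads of many copies can have. The median summed input was 62.5 reads, compared with 57 over the whole table, and the range was 21 to 115. At the highest, n-R5s158, 34 input reads in v102 and 81 in v134 gave 2.02 times the table median. The next, n-R5s205, had 23 and 80. No copy reached 3, 5 or 10 times the median in the summed input, or 5 times in each input alone. Of the whole table, 39, 38 and 31 rows reached these multiples in the summed input. Mitochondrial genes are among the rows of the table, which number 26324 without them, and their part in these counts was not separated. The input of the copies thus stood at the level of other rows. On the X chromosome, which male cells carry as a single copy, the 12 n-R5s windows had a median of 30 input reads, and all X rows had a median of 30. On the autosomes the medians were 64 for the n-R5s windows and 58 for all rows.

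Pooled over all copies, H3K9me2 was slightly higher at n-R5s windows than at the other rows. In v102, 880 ChIP reads and 2476 input reads gave a ratio of 0.355 (95% interval 0.329 to 0.384), which was 1.17 times (1.08 to 1.26) that of the other rows without mitochondrial genes. In v134, 1375 and 5055 reads gave 0.272 (0.256 to 0.289), which was 1.19 times (1.12 to 1.26). Both experiments thus gave nearly the same excess, and the sums, 2255 and 7531 reads, gave 1.17 times (1.12 to 1.23). These are Wilson intervals, which by construction take account of counting error alone, and not of the spread between loci or experiments. They also treat each read as a separate molecule, since PCR copies could not be told apart. The same pooling gave 0.416 times (0.384 to 0.450) at the windows of 104 small nucleolar RNA genes and 1.00 times (0.981 to 1.03) at those of 596 microRNA genes. The excess depended on the rows kept. When only n-R5s windows with at least 20 reads in each input were pooled, the ratio was 0.977 times (0.915 to 1.04) that of all other rows, and with the same minimum on the other rows it was 1.13 times (1.06 to 1.21).

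The shift was seen through most of the distribution, but not past its 90th percentile. The median ratio of the n-R5s windows was 0.250, compared with 0.162 over all rows, and 91 of 126 (72.2%) lay over the table median. The top quartile of the table, which starts at 0.343, held 42 copies, or 33.3% against 25.0% of all rows, and the bottom quartile held 14, or 11.1% against 25.0%. At or over the 90th percentile, 0.648, stood 10 copies, or 7.94%, compared with 10.0% of all rows. The plot of ChIP against input reads shows this spread, with ratios from 0.0156 to 1.69. Counts at single loci were small. For 65 of the 126 copies the 95% interval of the ratio held the table median, for 19 it lay over the top quartile's limit, and for 7 it lay under the table median.

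**Figure D2:**
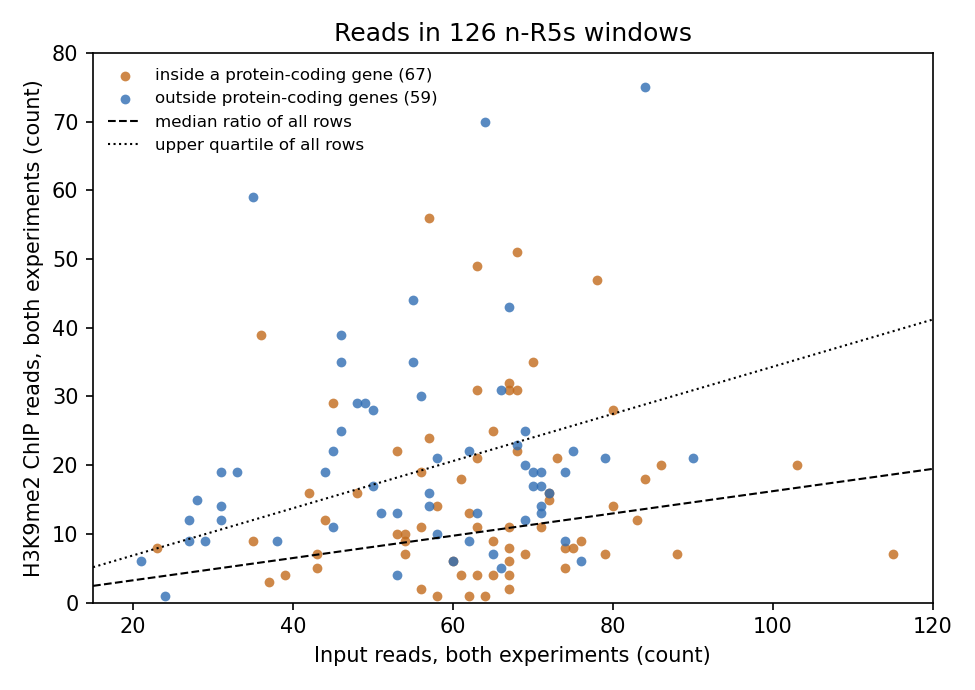
H3K9me2 ChIP reads (y axis, count) against input reads (x axis, count), both summed over the 2 experiments, for the 126 n-R5s windows, with the 67 inside protein-coding genes in orange and the 59 outside in blue. The dashed and dotted lines mark the median ratio of all rows, 0.162, and their upper quartile, 0.343, and no window has over 115 input reads.

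The experiments ranked the copies in a similar way. On the log2 scale, with each library scaled to its total over the table and 1 read added, the median of the n-R5s windows was 0.35 in v102 and 0.17 in v134, compared with −0.11 and −0.38 over all rows. In both experiments 74 copies (58.7%) lay over the table median, compared with 38.0% of all rows, and 32 copies stood in the top quartile of both, 25.4% of them against 17.8% of the table. Spearman's rho between the experiments was 0.689 across the 126 copies and 0.689 across all rows. These are descriptions over loci that share 4 libraries. The ChIP count was 0 at 2 copies in v102 and at 4 in v134, and at no copy in both.

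ChIP counts were next compared with input counts locus by locus, with edgeR's quasi-likelihood test and Benjamini-Hochberg adjustment over all 26354 rows, at an adjusted p of 0.05. The test asks whether a window's share of the ChIP libraries differs from its share of the input libraries, so above and below are relative to the other rows. Of the 126 n-R5s windows, 28 (22.2%) were above input, against 18.6 percent of all rows, and 9 (7.14%) were below, against 17.0 percent. The share above was near that of the table, and the share below was under it. The median log2 fold change was 0.27 for the n-R5s windows and −0.35 for all rows. With totals in place of TMM factors, which moved the median of all rows by −0.14, 26 copies were above and 14 below, against 16.3 and 21.5 percent of all rows, so that 65.0% of the called copies were above input in place of 75.7%. With the experiment number as a block, so that ChIP and input were paired, 25 copies were above and 5 below, against 15.8 and 8.30 percent of all rows. DESeq2 called 14 above and 0 below, against 11.5 and 0.110 percent, with 6 copies below at an unadjusted p under 0.05 and 66 adjusted values undefined. Without the input library of v102 there were 14 above and 0 below, against 11.5 and 1.88 percent, and without that of v134 there were 16 and 0, against 11.7 and 1.95 percent. In both cases 6 copies were below at an unadjusted p under 0.05. Without the ChIP library of v134 there were 18 above and 1 below, against 12.9 and 8.83 percent. The counts below input thus fell together with those of the whole table.

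**Figure D3:**
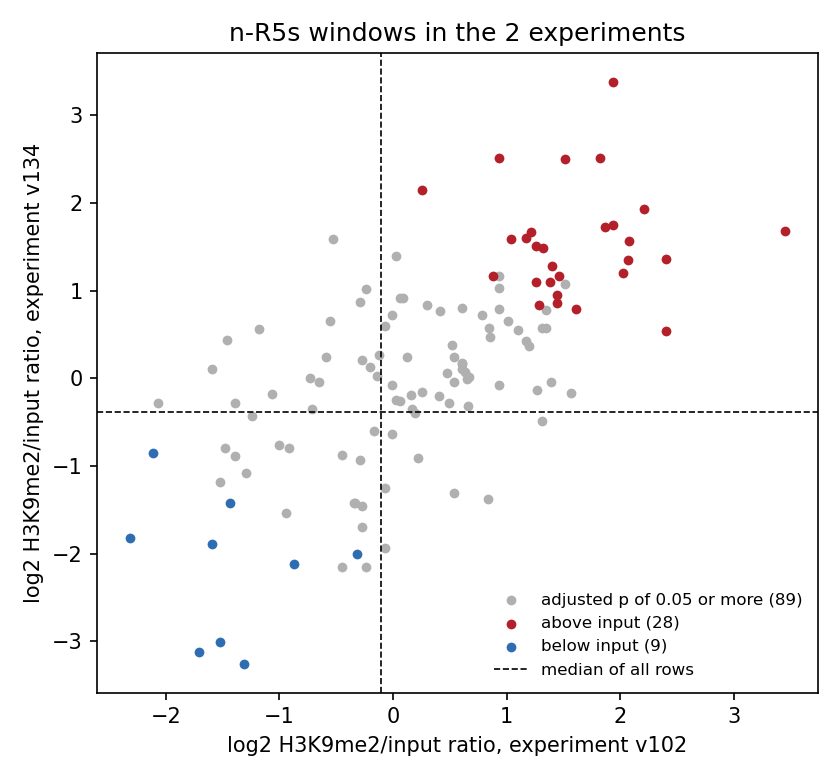
log2 H3K9me2/input ratio of each n-R5s window in experiment v134 (y axis) against v102 (x axis), scaled to library totals with 1 read added. By edgeR's quasi-likelihood test, windows above input (28, red) lie over 0 in both experiments, those below (9, blue) lie under 0 in both, 89 are grey, and dashed lines mark the medians of all rows.

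The 28 copies above input had a log2 fold change from 1.13 to 2.95 and lay on 16 chromosomes. All 28 had a log2 ratio over 0 in both experiments. The highest was n-R5s50 (chr14:110161835-110161945, plus strand), which lay outside protein-coding genes, 593 kb from the start of Slitrk6, a gene of a neuronal membrane protein. It had 16 ChIP reads in v102 and 43 in v134, compared with 16 and 19 input reads. The ratio was 1.69 (95% interval 1.11 to 2.55), with a log2 fold change of 2.95 ± 0.39 (SE) and an adjusted p of 6.30e-12. n-R5s37 (chr16:61373027-61373144, minus strand) lay farther still from a coding start, 768 kb from that of Epha6, an ephrin receptor. Its ChIP libraries held 25 and 45 reads and its input libraries 27 and 37, for a ratio of 1.09 and a log2 fold change of 2.35 ± 0.35 (adjusted p = 1.12e-09).

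n-R5s95 and n-R5s216 were high although they lay in introns. n-R5s95 (chr8:9568132-9568249) sits in Fam155a, on the same strand, 203 kb from its start. Its 19 and 20 ChIP reads faced 6 and 30 input reads, a ratio of 1.08 with a log2 fold change of 2.42 ± 0.42 (adjusted p = 3.01e-07), and its input of v102 was among the lowest. n-R5s216 (chr1:104880924-104881035) sits on the opposite strand of Cdh20, a cadherin gene, with 20 and 36 ChIP reads against 27 and 30 input reads, a ratio of 0.982 and a log2 fold change of 2.18 ± 0.37 (adjusted p = 1.04e-07). n-R5s216 had 62.2% identity to the array and 23 differences in the internal control region, which places it among the copies far from the array. n-R5s162 (chr6:60250792-60250910), by contrast, had 89.9% identity and 4 such differences and is listed by RefSeq as a ribosomal RNA gene. It lay outside protein-coding genes and had 22 and 53 ChIP reads against 18 and 66 input reads, a ratio of 0.893 and a log2 fold change of 2.13 ± 0.33 (adjusted p = 1.07e-08).

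The next 5 copies above input had log2 fold changes between 1.87 and 1.96 and ratios between 0.750 and 0.848. n-R5s68, 491 kb from Vrk2, had 11 and 28 ChIP reads against 23 and 23 input reads. n-R5s88, in an intron of the ephrin receptor gene Ephb1, had 20 and 29 against 21 and 42. n-R5s98, in an intron of Wdr17, had 20 and 31 against 18 and 50. These 3 stood 20.9 kb or more from a coding start, as did n-R5s220, 110 kb from Zfp648, with 17 and 18 ChIP reads against 12 and 34 input reads. n-R5s150 was the exception, 3.49 kb from the olfactory receptor gene Olfr1348, with 18 and 26 against 18 and 37. By edgeR's quasi-likelihood test and DESeq2 these 10 copies kept an adjusted p under 0.05 under every alternative in which they were tested, with the largest, 0.0498, for n-R5s68.

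The 9 copies below input held between 1 and 7 ChIP reads over both experiments, and all 9 lay inside protein-coding genes. n-R5s97, in an intron of Wwc2, had 1 ChIP read in v102 and 0 in v134, compared with 24 and 40 input reads. Its ratio was 0.0156 (95% interval 0.00273 to 0.0895; adjusted p = 0.00249). n-R5s40, in an intron of Gtpbp1, had 1 and 0 ChIP reads against 18 and 44 input reads, a ratio of 0.0161 (0.00282 to 0.0924; adjusted p = 0.00348). n-R5s40 lay 1.66 kb from the start of Gtpbp1, and its window overlaps that of the Gtpbp1 promoter, so that the rows share reads. n-R5s154, in an intron of Efl1, a gene of 60S ribosomal subunit maturation, had 1 and 0 ChIP reads against 21 and 37 input reads, a ratio of 0.0172 (0.00301 to 0.0988; adjusted p = 0.00506). Its window overlaps that of the row 4933406J10Rik.

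n-R5s200, in an intron of the palmitoyltransferase gene Zdhhc5, had 0 and 2 ChIP reads against 18 and 49 input reads, a ratio of 0.0299 (0.00805 to 0.111). n-R5s202, which overlaps an exon of Emc7, had 1 and 1 against 22 and 34, a ratio of 0.0357 (0.00960 to 0.133). The other 4, named after their values were seen because they complete the count, were n-R5s158, n-R5s161, n-R5s183 and n-R5s169, with ratios between 0.0597 and 0.0676. n-R5s158 was also the copy with the most input. The calls of all 5 copies given in full rested on few ChIP reads and were lost without the input library of either experiment, with adjusted p up to 0.251 over the alternatives by edgeR's quasi-likelihood test, while their direction held in each of these. DESeq2 left their adjusted p undefined. The call of n-R5s202 was also lost with the experiment as a block (adjusted p = 0.0564) and under a minimum of 20 reads per input library (adjusted p = 0.0609).

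Where a copy lay in the genome went with its ratio. Of the 126 copies, 67 lay inside a protein-coding gene, 60 in introns and 7 overlapping an exon, 26 on the strand of the gene and 41 on the opposite one. Their median ratio was 0.189, with 11 above input and 9 below. The 59 copies outside had a median of 0.293, with 17 above and 0 below by edgeR, and with 2 below at an unadjusted p under 0.05. Below input were 13.4% inside and 0% outside, both under the 17.0 percent of all rows. The share above input was 28.8% outside and 16.4% inside, on either side of the 18.6 percent of all rows. Both experiments showed this order, with median log2 ratios of 0.64 outside and −0.01 inside in v102, and 0.57 and −0.16 in v134. When windows short of 20 reads in either input library were left out, 5 of 22 outside and 8 of 44 inside were above input. These shares lay closer together. Windows outside had fewer input reads, with a median of 57 against 64 inside. Spearman's rho between summed input and mean log2 ratio was −0.30 across the 126 copies. The median ratio was 0.340 at the 60 copies left out and 0.197 at the 66 kept. The part of input depth in the difference by place was not tested. With totals in place of TMM factors, 2 of 59 copies outside and 12 of 67 inside were below input, against 21.5 percent of all rows. Without the ChIP library of v102, 1 outside was below, and DESeq2 called 0 below in either place.

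The ratio was higher farther from protein-coding starts. The 24 copies within 10 kb of one had a median ratio of 0.150, with 2 above input and 1 below. The 70 copies at 10 to 100 kb had a median of 0.233, with 11 above and 7 below. The 32 copies over 100 kb away had a median of 0.448, with 15 above input and 1, n-R5s154, below. The shares above input were thus 8.33%, 15.7% and 46.9%, and those below 4.17%, 10.0% and 3.12%, against 18.6 and 17.0 percent of all rows. In the top quartile of the table, which holds 25.0% of all rows, stood 16.7%, 27.1% and 59.4% of them. Median log2 ratios rose in the same order in v102 (−0.25, 0.22 and 1.17) and in v134 (−0.39, 0.06 and 0.89). With totals in place of TMM factors 15 of the 32 copies over 100 kb away were above input, and 14 with the experiment as a block. These compare with 16.3 and 15.8 percent of all rows. DESeq2 called 10 of the 32, with 8 adjusted values undefined, against 11.5 percent. Under a minimum of 20 reads in each input library, 10 of 17 were above, against 17.5 percent. Spearman's rho between the distance and the mean log2 ratio was 0.447 across the 126 copies.

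**Figure D4:**
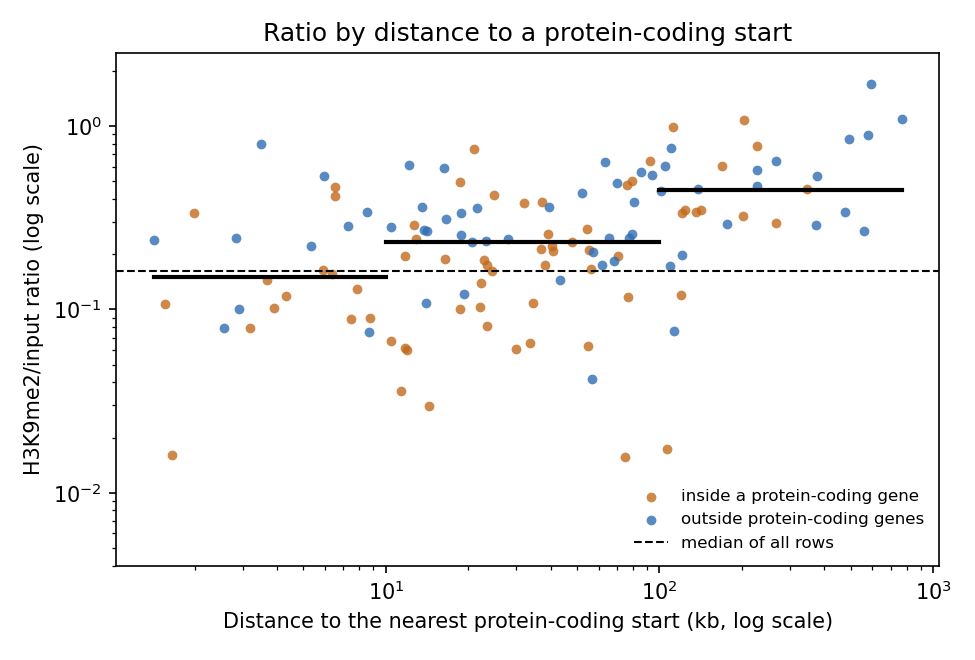
H3K9me2/input ratio (y axis, log scale) against distance to the nearest protein-coding start (x axis, kb, log scale) for 126 n-R5s windows, with those inside protein-coding genes in orange and those outside in blue. Thick lines mark the medians up to 10 kb, 10 to 100 kb and over 100 kb (0.150, 0.233 and 0.448), and the dashed line marks the median of all rows, 0.162.

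Distance and place overlapped in part. Over 100 kb from a coding start, the 13 copies inside large genes had a median ratio of 0.348 and the 19 outside had 0.470. Between 10 and 100 kb the medians were 0.187 for 40 copies inside and 0.269 for 30 outside, and within 10 kb they were 0.124 for 14 and 0.242 for 10. The order of these medians by distance was therefore the same in both places. Within experiments it did not hold throughout, since outside genes in v134 the median log2 ratio was 0.40 within 10 kb and 0.31 at 10 to 100 kb. It was not particular to 5S copies. MicroRNA windows in the same classes had medians of 0.106, 0.172 and 0.372 over 162, 248 and 152 rows, and 55.3% of those over 100 kb away were in the top quartile. Small nucleolar RNA windows, which mostly lie in introns of expressed genes, were at 0.0612 within 10 kb (77 rows) and 0.0769 at 10 to 100 kb (25 rows). The difference between the families was not tested.

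At copies inside genes the ratio was mostly higher than at the promoter of the host gene. For 57 copies the host's own promoter was among the rows, and the median ratio was 0.194 at the copies and 0.106 at the promoters. The copy was higher than its host's promoter in 39 of 57, and Spearman's rho between them was 0.135. Copies and host promoters were not matched for GC content, with which the ratio fell over the whole table (Spearman's rho −0.55). The part of GC content in this difference was not tested. The windows of n-R5s40 and n-R5s67 overlap the promoter windows of their hosts Gtpbp1 and Tmed4, so these rows share reads.

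At n-R5s copies, as over the whole table, the ratio was lower in windows richer in GC. The windows of the copies were poorer in GC than all rows, with medians of 42.9% and 50.9%, and held more repeat-masked sequence, 24.8% and 13.9%. The median ratio was 0.317 at the 42 copies with a GC content of up to 40.9%, 0.273 at the 43 in the middle and 0.196 at the 41 over 45.2%. Set against the median of all rows in its own 2% bin of GC content, the copy was lower at 31 of the 42, 23 of the 43 and 22 of the 41, or at 76 of all 126. The median of these bin medians over the 126 copies was 0.310, compared with 0.250 at the copies. This comparison was chosen after the values were seen and is a description with no test. Spearman's rho between GC content and mean log2 ratio was −0.21 across the copies and −0.55 across all rows with a matched gene, which span a wider range of GC content, and with the number of CpG sites it was −0.40 across the copies.

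**Figure D5:**
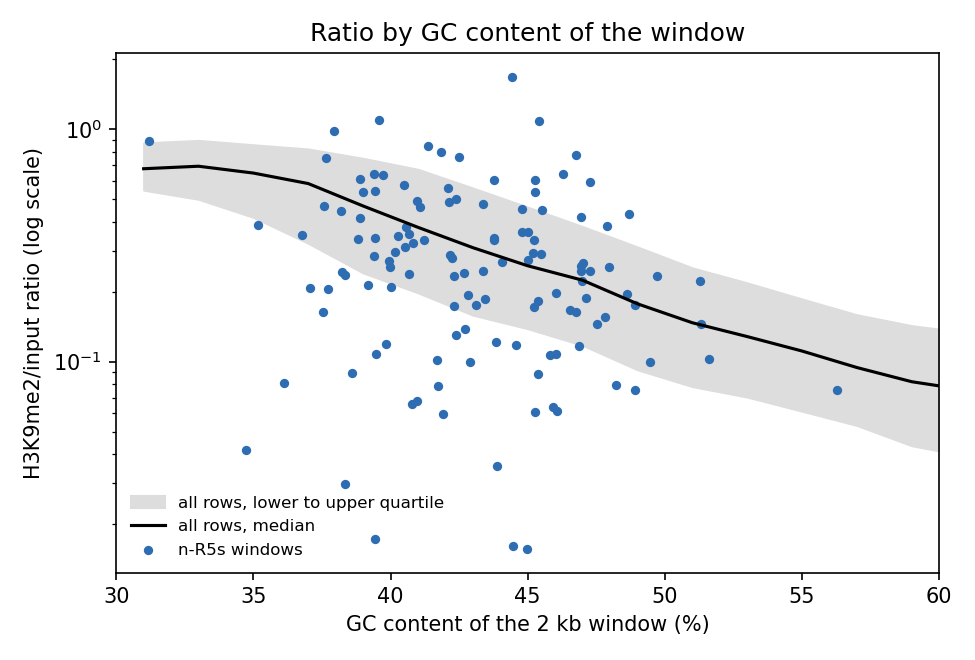
H3K9me2/input ratio (y axis, log scale) against GC content of the 2 kb window (x axis, %) for n-R5s windows (blue points), with the median of all rows in bins of GC content (line) and their lower to upper quartile (grey). Most points lie between 35 and 50% GC, and at the low end more of them lie under the line than over it.

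The ratio showed little relation to how well the 5S sequence was kept. The median ratio was 0.239 at the 44 copies of lowest identity to the array, 0.272 at the 42 in the middle and 0.269 at the 40 of highest identity, and Spearman's rho with the mean log2 ratio was 0.06. The 10 copies of 90% identity or more had a median of 0.269, with none called in either direction. The nearest to the array, n-R5s33 in an intron of Lrch3, had 6 ChIP reads in each experiment against 8 and 36 input reads, a ratio of 0.273. n-R5s185, whose internal control region matched the array sequence, had 4 and 4 against 19 and 55, a ratio of 0.108 (95% interval 0.0529 to 0.221). n-R5s151, listed by RefSeq as a ribosomal RNA gene, had 4 and 7 against 29 and 38, a ratio of 0.164. These copies were named for their sequence. The 7 copies that RefSeq lists as ribosomal RNA had a median of 0.266 and the 11 pseudogenes 0.288. Among the 14 copies with a TTTT, whose median was 0.283, 5 were above input and 0 below, against 18.6 and 17.0 percent of all rows.

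The 12 copies on the X chromosome had a median ratio of 0.329, compared with 0.189 at all X rows, and 6 of them (50.0%) were in the top quartile, compared with 27.7% of all X rows. Above input was n-R5s6, or 8.33% of these copies against 14.7% of all X rows, with 4 and 15 ChIP reads against 15 and 16 input reads, a ratio of 0.613 (adjusted p = 0.0184 by edgeR's quasi-likelihood test). Pooled, the X copies were 0.924 times (0.639 to 1.34) the other X rows in v102 and 1.41 times (1.10 to 1.81) in v134, so the experiments fell on opposite sides of 1. The copy on the Y chromosome, n-R5s1, had 3 and 6 ChIP reads against 9 and 18 input reads, a ratio of 0.333.

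The promoters of the genes that make and carry 5S RNA had a lower median ratio than the copies themselves. These promoters and the copies were not matched for GC content, with which the ratio fell over the whole table (Spearman's rho −0.55). The list held 36 protein-coding genes, and all 36 were in the table. Most are for TFIIIA, TFIIIC, TFIIIB, RNA polymerase III and the proteins that bring 5S RNA into the ribosome. It also held Maf1, Bop1 and polymerase subunit genes with Polr1 and Polr2 symbols, and so was not limited to these classes. Their median ratio was 0.116, with 2 above input and 12 below, compared with 18.6 and 17.0 percent of all rows. Gtf3c4, of TFIIIC, had 0 ChIP reads against 56 input reads, which allows a ratio of up to 0.0536. Brf1, of TFIIIB, had 0 against 45 (up to 0.0667), and Bop1, a factor of large subunit assembly, 0 against 55 (up to 0.0545). These limits are 3 reads over both ChIP libraries. Bdp1, a partner of Brf1 and TBP in TFIIIB, had 1 against 79, a ratio of 0.0127. The polymerase subunit genes Polr3e, Polr3f and Polr2f had ratios of 0.0213, 0.0227 and 0.0297, and Gtf3c1 had 0.0357. Above input were Crcp (0.515), a polymerase III subunit gene, and Rpf2 (0.468), a carrier of the 5S particle, both named after their values were seen. With the experiment as a block, 5 of the 36 were below input, against 8.30 percent of all rows. DESeq2 called 0 in either direction, with 1 above and 6 below at an unadjusted p under 0.05, but only 9 of the 36 had a defined adjusted p.

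Promoters of cell type markers were read only as ratios, since expression was not analysed here. Of 6 smooth muscle genes, 2 were below input (Myh11, with 0 ChIP reads against 60 input reads, and Myocd) and 1 was above (Smtn, 0.613). Of 3 genes each, the endothelial list had 1 below (Pecam1), the leukocyte list 1 above (Ptprc, 0.730) and the fibroblast list 1 below (Pdgfra). Of all rows, 18.6 percent were above and 17.0 percent below, so nothing was read from 1 or 2 calls in such short lists. The part of other cell types in the n-R5s values was not tested.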

How the data were processed

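Per the labels and methods, the authors trimmed paired-end reads of 75 bp (Trim Galore 0.4.2, cutadapt 1.9.1), aligned them to GRCm38 with Bowtie2 2.2.7, counted reads within 1 kb of each start site in SeqMonk and removed genes with fewer than 20 input reads. The treatment of duplicates and of reads that align to several places, which bears on repeated genes, and the annotation release are not given in the sources used here. The authors deposited raw counts per library, their sums and the ratio of the sums. Totals over the rows were 162233 (v102) and 229605 (v134) for ChIP and 619100 and 1084349 for input, which are not library depths, and the median row held 4 and 5 ChIP reads.

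Counts were tested with edgeR 4.0.16 (R 4.3.3; quasi-likelihood, TMM factors, all 26354 rows, no block, 2 libraries against 2) with DESeq2 1.42.0 for comparison. The test was run on simulated counts with 200 changed rows. The experiment number pairs the libraries, since each ChIP has its associated input, and the correlation of ChIP and input differences between experiments was 0.104. The chi-square per degree of freedom was 1.52 between the ChIP libraries and 1.28 between the input libraries, where counting error of separate molecules gives about 1. Since PCR copies could not be told apart, these values cannot decide whether either pair repeats 1 library.

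Positions came from GENCODE M21 by symbol, which matched all 126 copies and 22299 of all rows (84.6%), and sequences from the RefSeq GRCm38 genome (GFF annotation for gene types), which equalled the GENCODE transcripts for all 180 genes. The start sites the authors used may differ from these. Identity was the share of array positions matched in a global alignment (match 1, mismatch −1, gap −2 and −0.5, end gap −0.2). The reference was the most frequent sequence among the 180 annotated genes, since no sequence recurs among the 126. Named copies were the 10 above input with the largest fold change, the 5 below with the smallest, and the 5 highest and lowest ratios. The members, lists and tests were chosen with earlier results of these data known. Of 12 other small RNA genes listed (such as Rn7sk and Rmrp), 0 were among the rows used. Alternatives were the scaling, test, block, filters, mitochondrial rows, pseudocount and leaving out each library. Python 3.11.15, pandas 2.3.3, Biopython 1.88, pysam 0.24.0 and matplotlib 3.10.9 were used. Some sequences and a neighbouring gene are not reported here.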

Additional observations from a re-analysis of the deposited data

How the results depend on the processing

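The 15 named n-R5s copies kept their direction in all 137 comparisons with an alternative, and in 17 of these, all at copies below input, the adjusted p rose over 0.05. The top quartile held between 42 and 46 copies, and no multiple of the median input that was tried found a copy. The pooled excess of 1.17 was 1.30 with mitochondrial rows kept among the other rows. It was 1.44 with TMM factors, on totals that also kept the mitochondrial rows, so this value holds both changes. The excess was 0.977 when only the n-R5s windows had to hold 20 reads in each input (1.13 with that minimum on all rows, chosen after seeing the data). Without an experiment it was 1.17 to 1.19. The median log2 ratio of 0.33 was 0.46 with TMM factors, 0.17 without mitochondrial rows, 0.68 with 5 reads added and −0.049 under that minimum, where all rows had −0.56, and 0.17 to 0.35 without an experiment. In each setting it was higher than the median of all rows.

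The 28 copies above input became 14 by DESeq2 and 13 with 20 reads in each input (19.7% of the 66 copies tested, against 17.5% of all 13993 rows), and 14 to 30 without a library. The 9 below became 14 with totals, 0 by DESeq2, 2 with 20 reads in each input (3.03% against 12.0%) and 0 to 7 without a library, and 5 under the replicate block. The 5S pathway list went from 2 above to 0 by DESeq2 (0 to 3 without a library) and from 12 below to 0 by DESeq2, 5 under the replicate block and 5 with 20 reads in each input (3 to 11 without a library). The small nucleolar RNA count above, 3, was 1 to 5 without a library, and that below, 41, became 0 by DESeq2, 25 under the block, 21 with 20 reads in each input and 3 to 38 without a library. The microRNA count above, 104, became 51 by DESeq2, 57 with 20 reads in each input and 55 to 108 without a library, and that below, 72, became 0, 37 under the block, 32 and 5 to 73. By the main test, 2.88% of small nucleolar RNA windows were above input and 39.4% below. Of microRNA windows, 17.4% were above and 12.1% below, against 18.6 and 17.0 percent of all rows. DESeq2 called only 0.110 percent of all rows below. The cause of the changes in these counts was not tested. Fewer rows were tested, however, under the minimum of 20 reads, and fewer libraries when 1 was left out. With a library left out, the lone library of its group was assumed to vary like the other group. The median row held 9 ChIP and 57 input reads over both experiments, which limits the precision at single copies. All reads counted at a copy come from the 2 kb around it, so the values describe the copy together with its flanks.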
